A study of Saccharomyces cerevisiae with 8 samples.

Results

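Both backgrounds of a CRAC experiment on Pho92 in meiotic budding yeast were compared with each other: RNA recovered from cells that carried the tagged protein but received no UV, and RNA recovered from irradiated cells that carried no tag. The members are the 4 control libraries of the series, out of 8 libraries in all, taken by their labels. Together they held 10184 of the 226287 listed peaks. The Pho92-HTP no UV group comprised 2 libraries from cells whose Pho92 carries the HTP purification tag and which were not irradiated. The untagged WT group comprised 2 libraries from cells with no HTP tag, irradiated at 254 nm for 80 s. Cells of both groups were diploid SK1 yeast of the pCUP-IME1 background, in which IME1, the master regulator of entry into meiosis, is placed under a copper-inducible promoter. All were given 50 μM copper sulfate in sporulation medium and collected at 5 h in that medium, 3 h after induction. The series text calls the 2 libraries of each group biological replicates. An equal amount of irradiated fission yeast cells with HTP-tagged Luc7 went into each sample as a spike-in, so every preparation, the untagged ones included, also held tagged and crosslinked spike-in material. The groups differ in the tag and in UV at the same time, and the effect of one cannot be told apart from that of the other in this comparison. Where a level is set beside irradiated Pho92-HTP, that group is the 2 libraries labelled Pho92-HTP, with both the tag and UV. The series also holds tagged and irradiated libraries of an ime4 mutant, which are not part of that group.

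In CRAC, UV light forms covalent bonds between a protein and the RNA it touches, and the tagged protein is then purified under denaturing conditions so that RNA without such a bond is washed away. A tagged sample without UV therefore shows RNA that comes through the purification with the tagged protein but with no crosslink induced in budding yeast. An irradiated sample without the tag shows RNA that comes through with no tagged budding yeast protein to hold it. Both also hold the tagged and irradiated spike-in. Pho92 is a YTH-domain protein that reads the methylated adenosine m6A, a mark placed on meiotic mRNA in budding yeast.

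The authors deposited a list of peaks for each library, with a contig of the SK1 genome, a strand, a start, an end and a score that the file headers call h2w. Worked out from the lists, it is the square of the summit height over the width of the peak, with read density smoothed by a Gaussian of SD 15 nt. Heights are given here as read equivalents, in which 1 isolated read has a height of 1. The authors' threshold for a peak, a score of 0.9, then stood at 202 read equivalents for a peak 32 nt wide when no factor was applied. Depth is unknown, since read totals were not analysed here, and no counting error is attached to any value. The lists name no gene, and the genome at hand is of another strain and was not used here, so sites are given by contig and position as listed. Whether those positions count from 0 or from 1 is not stated.

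The 4 lists were of similar length and of unlike height. No UV libraries 1 and 2 held 2925 and 2462 peaks, against 2659 and 2138 in untagged WT libraries 1 and 2, so the groups overlapped in peak number. Covered length overlapped as well, at 93905 and 79275 nt without UV and 85086 and 68245 nt without the tag. Summed summit height separated them: the no UV libraries summed to 421065 and 334161 read equivalents, against 53223 and 35058 in the untagged libraries. The ratio of the group means was 8.55, and single pairs of libraries gave 6.28 to 12. The summed raw score, which squares the height, was 758792 and 366059 without UV and 5248 and 2131 in untagged WT, and the mean score per peak was 259 and 149 without UV and 1.97 and 0.997 in untagged WT. With 2 against 2 libraries an exact two-sided test of a total cannot go below p = 0.33, so no total was tested. Less of an RNA in the cells and less of it recovered cannot be told apart in these lists.

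The typical peak did not carry the difference. Its median height was 2.00 and 2.02 read equivalents without UV, beside 2.03 and 2.00 in untagged WT, and peaks under 1.5 read equivalents, the height of about 1 read, made up 31.8% and 30.8% of the no UV lists, against 30.1% and 34.9% of the untagged lists. The lists parted at the top. Peaks of at least 100 read equivalents numbered 85 and 73 without UV, against 51 and 42 in untagged WT. Peaks with a raw score above 0.9 numbered 60 and 61 without UV, against 32 and 25 in untagged WT. In both no UV libraries the 20 strongest peaks held most of the height, 90.1% and 89.6%, while the 20 strongest of the untagged libraries held 65.6% and 62.1%. It took 20 and 21 peaks to reach 90% of the height without UV, against 458 and 457 in untagged WT.

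The place of the strong signal differed between the groups. On contig NCSL01000092.1 the summed height was 22352 and 20243 read equivalents without UV, beside 35358 and 21989 in untagged WT, so the groups overlapped there (ratio of means 0.743). On all other contigs it was 398713 and 313918 without UV, against 17865 and 13069 in untagged WT, a ratio of 23.0. The contig thus held 5.31% and 6.06% of the height of the no UV libraries, against 66.4% and 62.7% of that of the untagged libraries. Nearly all of its peaks lay on the plus strand, 48 of 48 and 52 of 53 without UV and 53 of 53 and 54 of 54 in untagged WT, while over all contigs the plus strand held 53.8% and 52.9% of peaks without UV and 52.5% and 52.2% in untagged WT. The strongest peak was also at a different place. In both no UV libraries it lay on NCSL01000010.1 and held 41.2% and 33.8% of the height, and in both untagged libraries it lay on NCSL01000092.1 and held 25% and 23.8%. Without the NCSL01000010.1 site, the height outside NCSL01000092.1 was still 225129 and 200825 read equivalents without UV, against 14657 and 10574 in untagged WT, a ratio of 16.9.

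**Figure D1:**
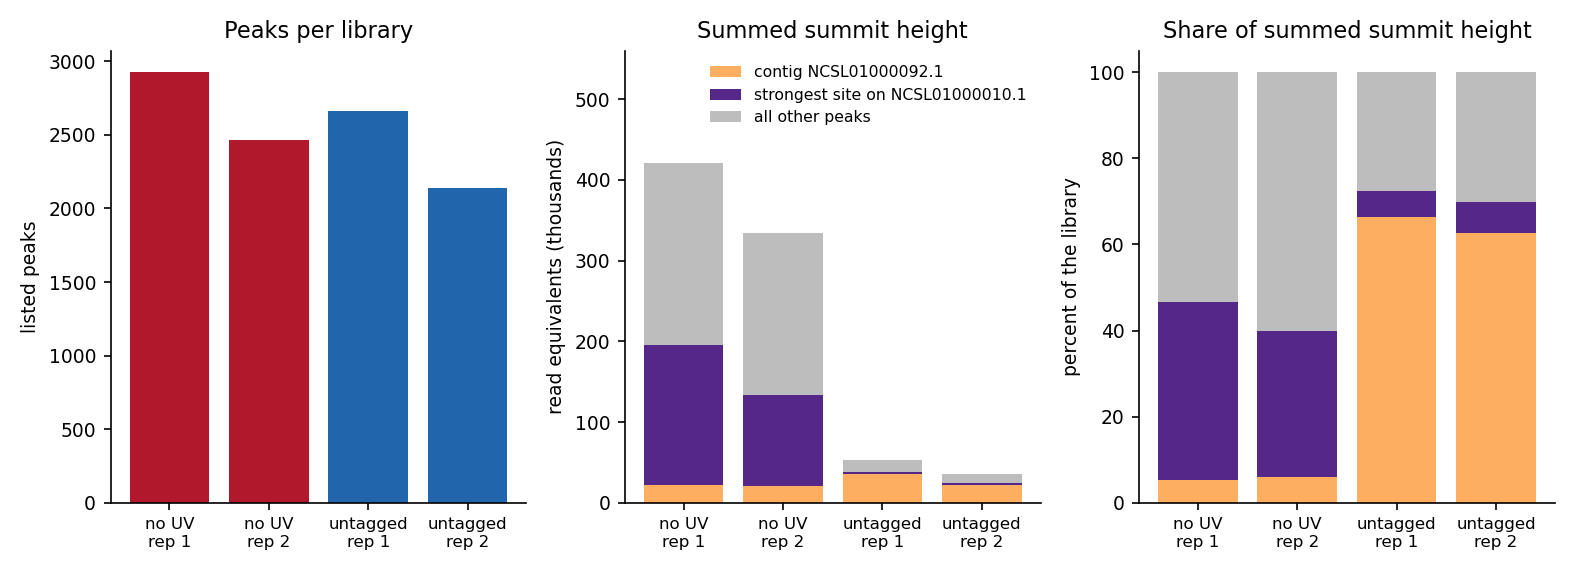
Peaks per library (left), summed summit height in units of 1000 read equivalents (middle) and its split in percent (right) for the 2 no UV and the 2 untagged libraries, with contig NCSL01000092.1 in orange, the strongest site of NCSL01000010.1 in purple and all other peaks in grey. Peak numbers overlap between the groups, heights do not, and the orange part fills 5.31% and 6.06% of the no UV libraries against 66.4% and 62.7% of the untagged libraries.

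Most listed peaks did not recur. Asking for 1 bp of overlap on the same strand, 18.6% to 22.1% of the peaks of a no UV library had a partner in the other no UV library, and 17.0% to 21.2% of untagged peaks had one in the other untagged library. Between the groups, 12.7% to 15.7% of no UV peaks had a partner in an untagged library, and 14.7% to 17.6% of untagged peaks had one in a no UV library. The few recurring peaks held most of the height. Recurring peaks made up 97.8% to 97.9% of the height between the no UV libraries and 81.1% to 84.1% between the untagged libraries. No UV peaks with an untagged partner made up 96.8% of the no UV height in each of the pairings, and untagged peaks with a no UV partner made up 75.4% to 79.0% of the untagged height.

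Recurrence climbed with height in both groups. Of peaks under 1.5 read equivalents, 8.07% to 10.8% recurred between the no UV libraries and 8.61% to 11.8% between the untagged libraries, and 5.01% to 7.64% of no UV peaks and 8.24% to 11.1% of untagged peaks had a partner in the other group. Of peaks of at least 100 read equivalents, 95.3% to 95.9% recurred within the no UV group and 92.9% to 96.1% within the untagged group. At that height 84.7% to 87.1% of no UV peaks had an untagged partner and 80.4% to 84.3% of untagged peaks had a no UV partner. The strong sites of each background were thus mostly listed in the other background too. Above a score of 0.9 in both lists the overlap was unequal, since the untagged lists are shorter: 27.9% to 41.0% of no UV peaks had a partner among the untagged peaks above 0.9, and 72.0% to 81.3% of untagged peaks had one among those of no UV.

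**Figure D2:**
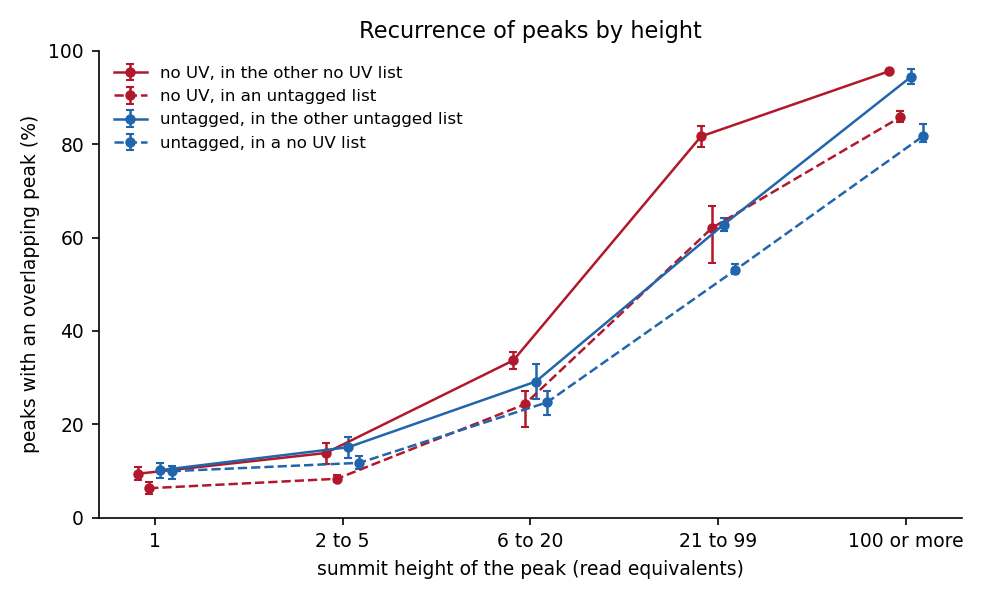
Share of peaks (percent) with an overlapping peak on the same strand, by summit height class in read equivalents, within a group (solid) and in the other group (dashed), for no UV (red) and untagged (blue) libraries. Points are means over pairs of libraries and bars run from the lowest to the highest pair; between the single-read class and the class of at least 100, recurrence within the no UV group climbs to 95.3% to 95.9%.

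Merging touching peaks of the same strand over the 4 lists gave 8335 regions. Of these, 7208 (86.5%) were listed in 1 library, 214 in all 4, 211 in both no UV libraries and no untagged one, and 169 in both untagged libraries and no no UV one. The other 533 were listed in another mix of libraries. The 214 regions shared by all libraries were few, but they held 96.6% and 96.5% of the height without UV and 78.8% and 74.8% in untagged WT. The 211 regions of the no UV libraries alone were low, with a median highest summit of 4.23 read equivalents, and held 0.619% and 0.663% of the no UV height. The 169 of the untagged libraries alone had a median of 4.85 read equivalents and held 4.13% and 5.19% of the untagged height. Across the 214 shared regions, the log2 scores of the 2 no UV libraries had a Pearson r of 0.956 and those of the 2 untagged libraries 0.901, against 0.666 to 0.720 between a no UV and an untagged library. These points share their libraries and are given as a description.

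The region value tested is the sum of raw scores in a library, or 0 where no peak is listed. The 1127 regions listed in at least 2 libraries were fitted with limma on log2(score + 2.21e-05), where the added value is the score of a single read. A log2 difference on this scale is close to 2 times that of the height. Of the 1127 regions, 91 were higher without UV (8.07%) and 39 were lower (3.46%) at a Benjamini-Hochberg adjusted p under 0.05, and 997 were not called. Before adjustment, 243 were higher and 107 lower at a p under 0.05. The median difference over all tested regions was 0.69, with quartiles of -1.54 and 3.05. None of the 130 called regions had overlapping groups, while over all tested regions the no UV libraries both exceeded the untagged ones in 407 (36.1%) and both lay under them in 218 (19.3%).

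Part of these calls rest on very low peaks. The highest summit was under 3 read equivalents in 28 of the 91 higher and 23 of the 39 lower regions, and in all of these the other group was listed at 0. In 21 of the 28 and 14 of the 23 it was under 1.5 read equivalents. The 2 listed libraries differed by less than 0.05 read equivalents in 25 of the 28 and 19 of the 23, so the spread there is at or near 0. Of the 91, 51 had no untagged peak and 31 were listed in all libraries. Of the 39, 35 had no no UV peak and 3 were listed in all libraries. Where a region was listed in 1 group alone, the filter on 2 libraries fixed its direction. Restricting the fit to the 214 regions listed in all libraries called 59 higher (27.6%) and 5 lower (2.34%) with limma, 29.9% in all, with a median difference of 2.34. Those calls held all 31 higher and all 3 lower regions of that class from the wider fit. A fit on the 339 regions with a mean summit of at least 5 read equivalents, added after seeing the data, called 91 higher (26.8%) and 14 lower (4.13%). Regions listed in 1 group alone entered that fit too, with their direction fixed by the filter.

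**Figure D3:**
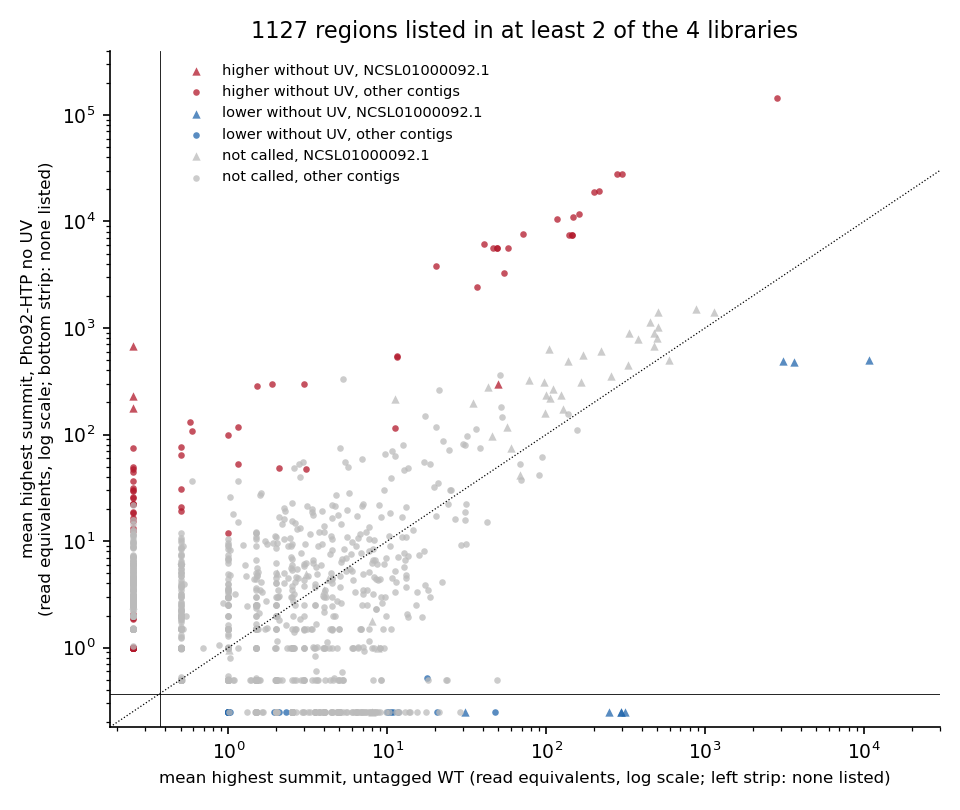
Mean highest summit per region without UV (vertical) against untagged WT (horizontal), in read equivalents on log axes, for the 1127 tested regions, with called regions in red (higher without UV) and blue (lower), triangles for NCSL01000092.1, and strips at the edges for regions not listed in a group. A band of red points far above the dotted line of equality holds the strong regions outside NCSL01000092.1, and the 3 blue triangles at the right are the strongest untagged regions.

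The excess of height without UV sat in a small set of narrow sites outside NCSL01000092.1. There, 20 regions had a mean no UV summit of at least 1000 read equivalents. They lay on 15 contigs, 13 of them on the minus strand, and 11 were exactly 31 nt long. They held 90.1% and 89.6% of the no UV height, against 11.1% and 12.3% of the untagged height. All 20 were also listed in both untagged libraries, at much lower summits, and the ratio of no UV to untagged summit ran from 50.3 to 188 with a median of 92. The weakest of the 20 had mean no UV summits of 2431 and 3261 read equivalents. Among the 20 the limma difference ran from 11.26 to 15.65 and adjusted p from 0.0176 to 0.0273. The regions were picked for their level without UV, so the direction of the whole set is a description.

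The strongest site of the no UV libraries lay on NCSL01000010.1 at 76774 to 76805, plus strand. Its summit stood at 173585 and 113093 read equivalents without UV, against 3208 and 2495 in untagged WT. The untagged level made it also 1 of the 8 strongest untagged regions, and the only one of those 8 off NCSL01000092.1. Its summed score was 687540 and 291840 without UV, against 235 and 142 in untagged WT, and limma put the log2 difference at 11.26 (SE 0.70, adjusted p = 0.0197). Irradiated Pho92-HTP held a summit of 78128 and 55971 read equivalents at this site, below both no UV libraries when unscaled. With the sheets' factors the heights were 113583 and 97712 without UV, against 78128 and 136185 in irradiated Pho92-HTP. With the table's factors they were 184254 and 99275 without UV, so these groups overlapped under either set. Unscaled, the irradiated ime4 mutant libraries had 117046 and 106817 at this site, which overlapped the no UV values.

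The next strongest were a pair of plus-strand sites on different contigs with almost the same heights. NCSL01000002.1 at 149968 to 149999 had 23587 and 32641 read equivalents without UV, against 364 and 239 in untagged WT. NCSL01000001.1 at 445225 to 445256 had 24088 and 32191 without UV, against 365 and 193 in untagged WT. At both sites no UV library 2 was above library 1, the reverse of the NCSL01000010.1 site, and both no UV libraries lay far above both untagged ones (log2 differences of 13.11 and 13.42, SE 0.73 and 0.90, adjusted p = 0.0184 and 0.0197 with limma).

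A pair of minus-strand sites followed on NCSL01000009.1. The site at 88258 to 88289 had 21599 and 17090 read equivalents without UV, against 259 and 168 in untagged WT, and the site at 347149 to 347180 had 21404 and 16519 without UV, against 232 and 168 in untagged WT. Within each library the paired sites stood close to each other. The limma differences were 13.05 and 13.14 (adjusted p = 0.0184 and 0.0179).

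The 3 remaining sites of the 8 strongest were also 31 nt long and on the minus strand. NCSL01000011.1 at 300989 to 301020 had 13028 and 10378 read equivalents without UV, against 186 and 137 in untagged WT (log2 difference 12.37). NCSL01000054.1 at 27327 to 27358 had 13709 and 8228 without UV, against 157 and 137 in untagged WT (12.35). NCSL01000022.1 at 138631 to 138662 had 13349 and 7926 without UV, against 108 and 127 in untagged WT (12.92). In all 3 the groups were far apart, and adjusted p with limma was 0.0179 to 0.0186.

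Among regions listed in all libraries, the 5 largest fitted differences lay outside NCSL01000092.1. NCSL01000002.1 at 322680 to 322739, plus strand, had 3716 and 3934 read equivalents without UV, against 25.1 and 15.5 in untagged WT, with a log2 difference of 15.65 (SE 0.56, adjusted p = 0.0176 with limma). NCSL01000010.1 at 48853 to 48900, minus strand, had 7120 and 5128 without UV, against 35.8 and 45.3 in untagged WT (14.52). A much weaker site, NCSL01000054.1 at 18419 to 18452, minus strand, had 387 and 189 without UV, against 2.00 and 1.00 in untagged WT (14.48), so its untagged value rests on 1 or 2 read equivalents. Minus-strand regions on NCSL01000029.1 at 132359 to 132415 and on NCSL01000031.1 at 84015 to 84071 completed the 5, with differences of 14.71 and 14.28. Their summits were 6231 and 4975 read equivalents and 6356 and 5007 without UV, against 60.9 and 31.9 and 64.6 and 33.1 in untagged WT.

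Below the strong sites the difference was smaller. The ratio of no UV to untagged summit had a median of 8.70 in the 15 shared regions outside NCSL01000092.1 with a mean no UV summit of 100 to 1000 read equivalents. It was 3.34 in the 82 regions between 10 and 100, and 0.911 in the 64 regions under 10. The classes are cut by the no UV level, which is also the top of the ratio, so a gradient in this direction is partly built in. A raw score above 0.9 in at least 2 of the 4 libraries was reached by 26 regions outside NCSL01000092.1. In 21 of them no untagged library was above 0.9, so they were kept by the no UV libraries alone and their direction is fixed by the filter. In the other 5, at least 1 untagged library was above 0.9, and in 2 both were. Outside that contig 29 and 26 peaks were above 0.9 without UV, against 6 and 2 in untagged WT.

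**Figure D4:**
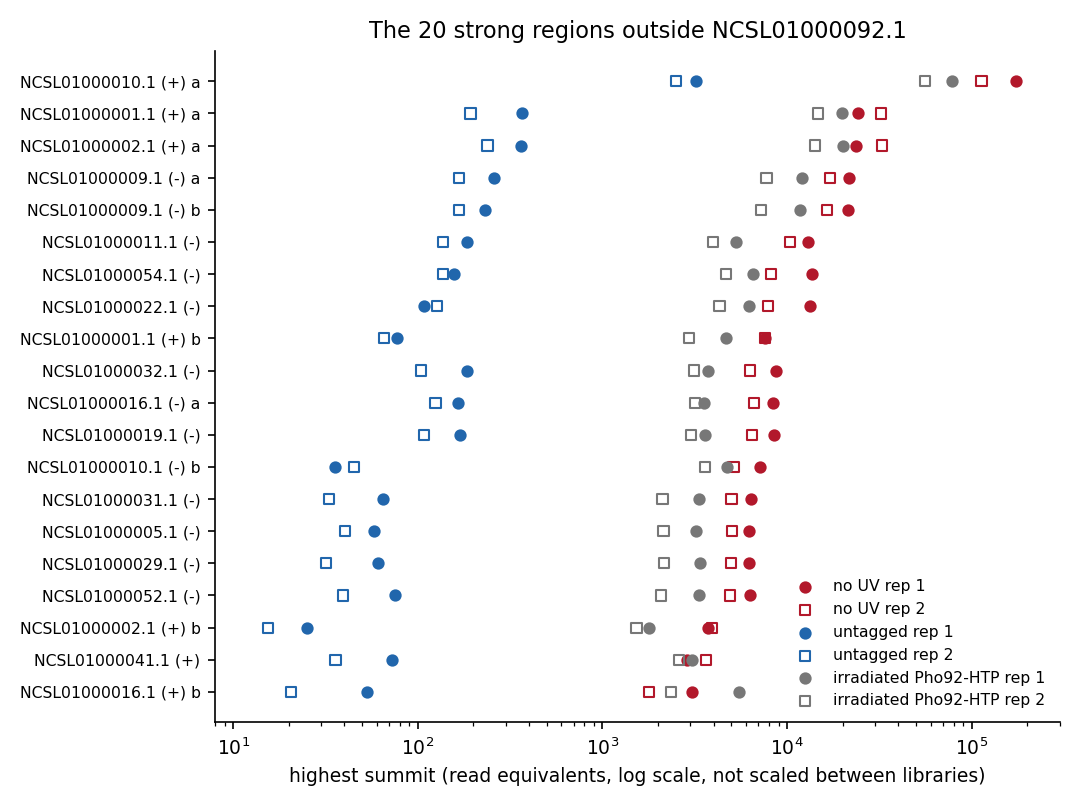
Highest summit in read equivalents (log axis, not scaled between libraries) of the 20 strong regions outside NCSL01000092.1, in no UV (red), untagged (blue) and irradiated Pho92-HTP (grey) libraries, with filled circles for replicate 1 and open squares for replicate 2. Every red point lies at least 1 decade right of the blue points of its region, and in 18 of the 20 regions both red points are also right of both grey ones on this unscaled axis.

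Untagged WT was dominated by a few sites on NCSL01000092.1. The 55 tested regions of this contig all lay on the plus strand between 610 and 5513, and 33 of them were listed in all libraries. The 3 strongest untagged regions held 5.59% and 8.97% of the contig's summed region summits without UV, against 62.1% and 64.3% in untagged WT. They were picked for their untagged level, so a lower no UV level is partly built in and their direction is a description. In the no UV libraries, each library's own 3 strongest regions held 23.5% and 19.6% of that sum. The region at 4456 to 4504 had a summit of 352 and 651 read equivalents without UV, against 13306 and 8332 in untagged WT. Its score was 2.00 and 9.99 without UV, against 3914 and 1535 in untagged WT, and limma gave a log2 difference of -9.10 (SE 1.14, adjusted p = 0.0401). Both no UV libraries were far below both untagged libraries there.

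The neighbouring region at 4527 to 4558 had a summit of 389 and 568 read equivalents without UV, against 4361 and 2918 in untagged WT, with a log2 difference of -6.11 (SE 0.77, adjusted p = 0.0401 with limma). The region at 3410 to 3444 had 449 and 537 without UV, against 3705 and 2520 in untagged WT, with a difference of -5.37 (SE 0.63, adjusted p = 0.0353 with limma). In neither did the groups overlap. Leaving out any 1 of the 4 libraries kept the 3 differences negative, from -10.26 to -4.81, and ended all 3 calls, with adjusted p of 0.0565 to 0.171. Scores times the sheets' factors left 1 of the 3 called. These were the 3 regions of the shared class that the test over 1127 regions put lower without UV. The same 3 regions stood at 73832 and 61222, 47614 and 25874, and 28537 and 15853 read equivalents, unscaled, in the irradiated Pho92-HTP libraries. A higher level there was not particular to these 3 regions. Over shared regions the unscaled no UV summit over the irradiated one had a median of 0.0631 on this contig and 0.0311 elsewhere.

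The rest of the contig did not follow them. Of the other 4 regions of NCSL01000092.1 among the 8 strongest of untagged WT, none was called. The region at 1759 to 1840 had 1505 and 1303 read equivalents without UV, inside the untagged values of 1827 and 461, with a log2 difference of 0.11 (SE 1.51, adjusted p = 1). At 1589 to 1635 the summit was 1722 and 1268 without UV, against 1232 and 516 in untagged WT (1.47, SE 1.17). At 2688 to 2787 it was 574 and 435 without UV, against 819 and 372 in untagged WT (-1.27, SE 0.87). At 1935 to 1967 both no UV libraries, with 1772 and 1025, were above both untagged ones, with 610 and 402, and the difference of 2.84 (SE 0.86) still had an adjusted p of 0.145 with limma.

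Over the 55 tested regions of the contig, 4 were higher without UV, 8 lower and 43 not called, beside 8.07% higher and 3.46% lower over all tested regions. Regions listed in 1 group alone are among both the higher and the lower calls, and the filter fixed their direction. The limma fit on regions listed in all libraries held 33 regions of this contig. Of these, 5 were called higher without UV and 3 lower, beside 27.6% and 2.34% over that fit. Over the 55, the difference was positive in 38 regions and negative in 17, and the median was 1.47, beside 0.69 over all regions tested. Of the 33 shared regions, 27 had a higher mean summit without UV, and the ratio had a median of 2.05. The direction of this median depends on the scale: with equal summed height per library it was -4.41, with 3 regions higher and 27 lower, and with a trimmed mean of log ratios it was -0.90, with 3 higher and 8 lower.

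**Figure D5:**
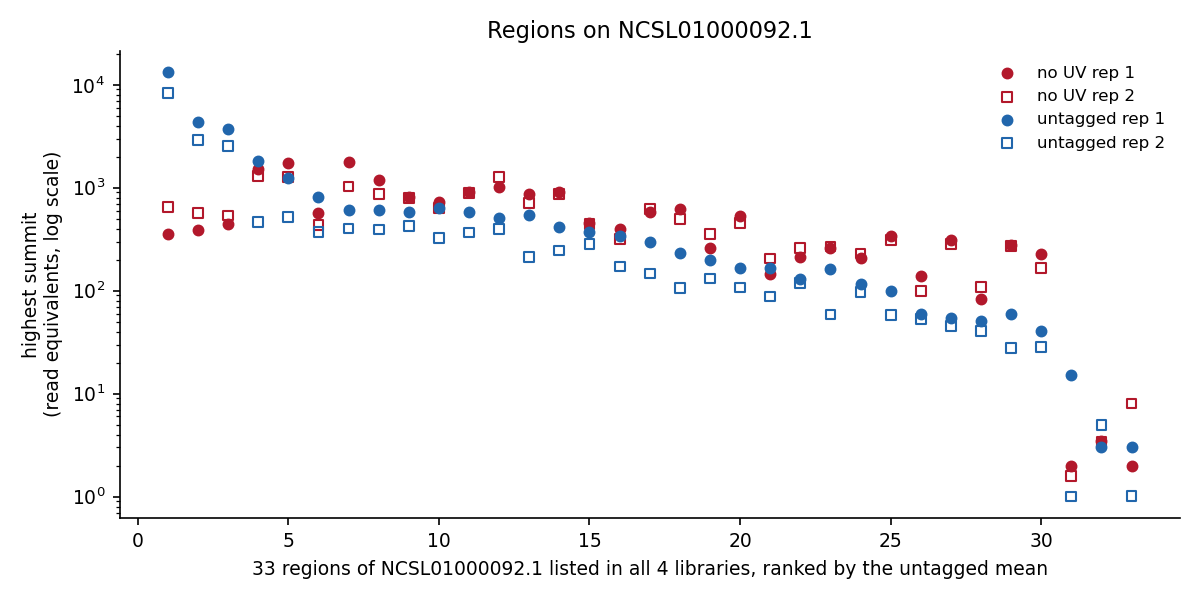
Highest summit in read equivalents (log axis) of the 33 regions of NCSL01000092.1 listed in all 4 libraries, ranked by the untagged mean, in no UV (red) and untagged (blue) libraries, circles for replicate 1 and squares for replicate 2. The first 3 regions are far higher in untagged WT and are among the 6 of the 33 with a lower mean without UV. In the other 27 the unscaled mean is higher without UV.

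Regions listed in 1 group alone were examined for neighbours, since a shoulder of a stronger peak may have no peak of its own. Of the 5 strongest regions of both no UV libraries without an untagged peak, 3 were regions of NCSL01000092.1. The first of these, from 2089 to 2116, had summits of 749 and 620 read equivalents without UV and was not listed in untagged WT, but untagged peaks within 50 nt reached 632 and 322. The second, from 4780 to 4817, had 243 and 220 without UV, with untagged peaks of 266 and 324 within 50 nt. The third, from 4128 to 4164, had 140 and 215 without UV, with untagged peaks of 413 and 210 within 50 nt. All 3 thus had untagged signal close by, listed under another peak.

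The other 2 had no untagged peak within 50 nt. NCSL01000014.1 at 113760 to 113791, minus strand, had 72.0 and 77.2 read equivalents without UV, and NCSL01000061.1 at 26842 to 26881, plus strand, had 68.3 and 29.8. Both passed the filter on 2 libraries through the no UV group alone, so their direction is fixed by the choice and no test is given, and since untagged WT is listed at 0, no fold is given. In irradiated Pho92-HTP the first was listed in 1 library, with 44.6 read equivalents, and the second in both, with 77.7 and 96.4.

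The 5 strongest regions of both untagged libraries without a no UV peak each had a no UV peak within 50 nt. On NCSL01000092.1, beside the region at 4069 to 4098, no UV peaks within 50 nt reached 904 and 884 read equivalents, against 413 and 210 in the region itself in untagged WT. Beside the region at 1661 to 1690 no UV peaks reached 1722 and 1268, against 369 and 226 in untagged WT in the region. Beside the region at 1712 to 1737 they reached 1505 and 1303 without UV, against 324 and 171 in untagged WT in the region. At 4744 to 4775 the values overlapped, with no UV peaks of 261 and 356 nearby, against 266 and 324 in untagged WT in the region. On NCSL01000008.1, beside the minus-strand region at 1259 to 1291, no UV peaks reached 178 and 121, against 42.6 and 52.3 in untagged WT in the region. With touching peaks merged, the choice fixed the direction of all 5. The differences turned positive, 1.38 to 3.63, when peaks within 50 nt were merged into 1 region. That merging chains peaks. The regions at 1661 to 1690 and 1712 to 1737 fell into the same merged region, so their shared value of 1.44 is 1 result. A merged value can hold signal farther than 50 nt from the named region, so it does not give the difference close to it. In none of the 5 was the stretch within 50 nt empty without UV.

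Peak widths were compared at 1 height limit in both places. Outside NCSL01000092.1, peaks of at least 100 read equivalents were 30 to 32 nt wide in 25 of 47 and 27 of 34 cases without UV and in 16 of 16 and 12 of 12 cases in untagged WT. On NCSL01000092.1, peaks of at least 100 read equivalents had that width in 10 of 38 and 12 of 39 cases without UV and in 13 of 35 and 12 of 30 cases in untagged WT. Among peaks of at least 500 read equivalents, the counts without UV were 19 of 21 and 20 of 22 outside the contig and 4 of 18 and 8 of 17 on it. In untagged WT they were 1 of 1 in each library outside the contig, and 8 of 13 and 2 of 4 on it. Most peaks of a single read were 30 to 32 nt wide as well.

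In the 35 shared regions outside NCSL01000092.1 with a mean no UV summit of at least 100 read equivalents, the summits of the 2 no UV libraries lay a median of 0 nt apart and within 1 nt of each other in 31 of 35. Those of the 2 untagged libraries lay a median of 1 nt apart, within 1 nt in 19 of 35, and a no UV and an untagged summit lay a median of 1 to 2 nt apart. In the 33 shared regions of NCSL01000092.1 the median was 4 nt between the no UV libraries, with 6 of 33 within 1 nt, and 2 nt between the untagged libraries, with 15 of 33 within 1 nt. The closeness of no UV summits was not a trait of all sites outside that contig: in the other 146 shared regions there the median was 7 nt, with 33 within 1 nt, and between the untagged libraries it was 9 nt, with 27 within 1 nt.

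The levels were set beside irradiated Pho92-HTP, with no test. The 20 strong regions were picked for a high no UV summit, so their ratio to irradiated Pho92-HTP is a description. In unscaled read equivalents the no UV summit over the irradiated one had a median of 2.02 and ran from 0.621 to 2.52, and both no UV libraries were above both irradiated ones in 18 of 20. The median was 0.972 when heights were scaled by the sheets' factors and 1.27 with the table's, a scaling added after seeing the data, and then no region of the 20 had both no UV libraries above both irradiated ones. In the 33 shared regions of NCSL01000092.1 the unscaled median was 0.0631, and over all 181 shared regions elsewhere it was 0.0311. Of the 214 regions shared by all control libraries, 95.8% touched a peak of both irradiated Pho92-HTP libraries. The share was 72.0% in the 211 no UV regions, 76.3% in the 169 untagged regions and 38.7% in those listed in 1 library. Over all 8335 regions it was 44.4%, and over the 1127 listed in at least 2 libraries it was 81.0%. The classes differ in median length, with 55.5, 44, 43 and 32 nt in the same order, and the shares were not adjusted for it.

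The comparison was repeated with the deposited factors, ratios by which the authors scaled each score to the spike-in. The factors in the sheets and in the deposited Normalization table disagree: the sheets multiply no UV scores by 0.428 and 0.746 and untagged scores by 1.13 and 0.771, while the table lists 1.13 and 0.771 for no UV and 0.428 and 0.746 for untagged WT. A total of 2138 peaks stands in the table for no UV library 2, whose list holds 2462, and 2138 is the length of the list of untagged WT library 2. For no UV library 1 and both untagged libraries the table's total equals the list. The table's spike-in scores follow its own factors, while its counts of peaks above 0.9, which are 51 and 58 for no UV and 33 and 20 for untagged WT, equal those under the sheets' factors. Which assignment of factors is right could not be settled from the files, nor whether the lists themselves are exchanged. Were the lists exchanged between the groups, the direction of every difference between no UV and untagged WT given here would be reversed. The groups are named by their labels, and both sets of factors were used. Peaks above 0.9 numbered 51 and 58 without UV, against 33 and 20 in untagged WT, with the sheets' factors, and 64 and 58 without UV, against 24 and 20 in untagged WT, with the table's factors. The ratio of summed height between the groups was 6.47 with the sheets' factors and 11.4 with the table's.

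With the sheets' factors limma called 46 regions higher without UV and 8 lower, and with the table's factors 55 higher and 9 lower. The median difference over all tested regions was 0.39 with the sheets' factors and 1.22 with the table's, against 0.69 with none. All 20 strong regions outside NCSL01000092.1 were called higher under either set, with log2 differences of 10.54 to 14.93 and 11.98 to 16.37. These regions were picked for their no UV level, so neither these calls nor those with a library left out test their direction. Without 1 no UV library 10 or 11 of the 20 were still called, and without 1 untagged library 16 or 15, with every difference positive.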

How the data were processed

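CRAC peak lists of 4 control libraries (2 Pho92-HTP no UV, 2 untagged WT) were analysed; groups come from the labels. The labels give a read length of 75 nt. Cutadapt, Bowtie2 2.4.1 and ASM294v2, a fission yeast build, are named in the submitters' processing notes, with no role given; the peak caller and the SK1 build are not given in the sources used here. Per the file headers, the deposited score is a raw h2w score per peak and the deposited normalized score is that score times a factor, a ratio of spike-in scores between libraries. Peaks were called per library. The summit height was computed from score and width with a Gaussian of SD 15 nt; in 91.3% to 92.4% of peaks 32 nt wide it then lay within 0.01 of a whole number. Touching same-strand peaks were merged. A test for scores was needed, so log2(summed raw score + 2.21e-05) was fitted with a mean-variance trend in limma 3.58.1 under R 4.3.3. The pseudocount is percentile 5 of the raw scores. Regions listed in at least 2 libraries entered, with Benjamini-Hochberg adjustment over all of them and a threshold of 0.05. P-values measure the spread between these libraries. Named regions were the 8 with the highest mean score in each group, the 5 most higher and 5 most lower called regions listed in all libraries (3 were lower), and the 5 strongest of each group without a peak in the other. Members, lists and cut-offs were chosen with earlier results of these data known; the classes by summit height, the close-height sets and the contig-start window were chosen after the values were seen. The procedure was tested on simulated data. Tables and plots were made with pandas 2.3.3, matplotlib 3.10.9, scipy 1.17.1 and numpy 2.4.6 in Python 3.11.15. Other factors, scalings, pseudocounts, filters, merging distances, left-out libraries, a replicate block and a fit on all 8 libraries were tried.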

Additional observations from a re-analysis of the deposited data

How the results depend on the processing

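Regions higher and lower without UV numbered 91 and 39 of 1127 (limma). They numbered 46 and 8 with the sheets' factors, 55 and 9 with the table's factors, 39 and 121 with equal summed height, 34 and 12 with a trimmed mean of log ratios, and 36 and 7 of 8335 with no filter. They numbered 36 and 7 of 59 regions above 0.9 in at least 2 libraries, 59 and 5 of 214 listed in all libraries, 74 and 15 with peaks within 50 nt merged, 145 and 83 on summed height, and 86 and 14 in a fit on all 8 libraries. In settings chosen after seeing the data they numbered 91 and 14 with a mean summit of at least 5, 44 and 5 with a pseudocount 10 times higher, and 162 and 91 with one 10 times lower. Pseudocounts at percentiles 1 and 25 equal that at percentile 5. The share of higher calls moved with the scale, and the median log2 difference was 0.69 unscaled, 0.39 and 1.22 with the sheets' and the table's factors, -2.81 with equal summed height and -0.73 with the trimmed mean; the cause of the moves was not tested. Leaving out 1 library gave 58 to 238 higher and 30 to 171 lower regions: 233 and 33 without no UV replicate 1, 238 and 30 without no UV replicate 2, 67 and 169 without untagged replicate 1, and 58 and 171 without untagged replicate 2, the lone library being assumed to vary like the other group.

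Same-numbered libraries did not deviate together (correlation 0.0612 over 1127 regions and 0.0266 over 214), so the numbers were not taken to pair them. With replicate number as a block, limma called 0 higher and 0 lower, with 175 higher and 71 lower at an unadjusted p under 0.05.

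Peaks above a raw score of 9 averaged 32.5 without UV and 6.0 in untagged WT, against 60.5 and 28.5 above 0.9. NCSL01000092.1 held 0.0634% of the score without UV and 94.0% in untagged WT, against 5.68% and 64.6% of the height. On average 10.3% of no UV and 11.9% of untagged peaks had a partner in the other group when 50% of the peak had to overlap, and 34.3% and 75.8% above 0.9, against 14.3% and 16.2% with 1 bp.

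Of 601 recalculations for the 30 named regions, 504 kept direction and call, 81 lost the call, 2 gained it and 14 reversed. The 504 include 30 at each of pseudocount percentiles 1 and 25, which repeat the main fit. They also include uncalled regions that stayed uncalled, and regions listed in 1 group alone, whose direction the filter fixed. The tally is therefore no measure of robustness. On NCSL01000092.1, the region at 1759 to 1840 turned to -0.61 with the sheets' factors, -6.12 with equal height, -2.61 with the trimmed mean, and from -1.70 (without untagged replicate 2) to 1.93 (without untagged replicate 1) when 1 library was left out, with -0.12 without no UV replicate 1. The region at 1589 to 1635 turned to -4.76 with equal height and -1.25 with the trimmed mean, and the region at 1935 to 1967 to -3.40 with equal height. With peaks within 50 nt merged, 4069 to 4098 turned to 1.38, 4744 to 4775 to 1.57, and on NCSL01000008.1 1259 to 1291 to 3.63. On NCSL01000092.1, 1661 to 1690, 1712 to 1737 and 2688 to 2787 each turned to 1.44, which is also the value for 1759 to 1840 in that setting. The regions at 1661 to 1690, 1712 to 1737, 1759 to 1840 and 2688 to 2787 are chained into the same merged region. These equal values are therefore not separate results, and they include signal farther than 50 nt from each region. For the 3 strongest untagged regions adjusted p was 0.0517 to 0.0573 with the higher pseudocount.

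Read totals are unknown, so a region listed at 0 is not shown to be absent, and 2 libraries a group leave each spread poorly known.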

Other observations

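Several of the 20 strong regions outside NCSL01000092.1 came in sets of almost equal height, a pattern noticed in the data. Of 190 pairs among them, 12 differed by less than 5% in both no UV libraries, and these pairs involve 13 regions on different contigs or distant positions. Besides the pairs already named, the minus-strand regions of NCSL01000032.1 at 103559 to 103590, NCSL01000016.1 at 119530 to 119561 and NCSL01000019.1 at 162437 to 162468 had 8710, 8391 and 8507 read equivalents in no UV library 1, against 186, 165 and 169 in untagged library 1. In library 2 of each group they had 6327, 6625 and 6477 without UV, against 104, 125 and 108 in untagged WT.

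A set of 4 minus-strand regions stood as close. NCSL01000031.1 at 84015 to 84071, NCSL01000005.1 at 195067 to 195126, NCSL01000029.1 at 132359 to 132415 and NCSL01000052.1 at 60288 to 60348 had 6356, 6237, 6231 and 6268 read equivalents in no UV library 1, and 5007, 5034, 4975 and 4916 in no UV library 2. In untagged WT they had 64.6, 57.7, 60.9 and 75.3 in library 1 and 33.1, 40.5, 31.9 and 39.5 in library 2. Whether the members of a set share sequence, so that reads of 1 RNA are split over copies, was not tested, and their single values are uncertain for that reason.

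A second group of sites lay at the start of contigs. Of the tested regions, 14 began within 100 nt of a contig's first base, 13 of them on the plus strand. In 10 of the 14 both no UV libraries were above both untagged ones, against 36.1% of all tested regions. The limma fit over 1127 regions called 1 of the 14 higher, beside 8.07% higher overall. In the limma fit on regions listed in all libraries 10 of the 14 were included, and 5 were called higher without UV, beside 27.6% higher over that fit. The strongest, NCSL01000037.1 at 32 to 74, had 457 and 266 read equivalents without UV, against 66.3 and 36.0 in untagged WT, with a log2 difference of 5.55 (SE 1.17, adjusted p = 0.00485 with limma). Irradiated Pho92-HTP had 8722 and 5893 read equivalents there, unscaled, so unlike the 20 strong regions this site was far higher in irradiated Pho92-HTP than without UV. That was common outside NCSL01000092.1, where the no UV summit over the irradiated one had a median of 0.0311 in the 181 shared regions.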
